A study of Mus musculus with 6 samples.

Results

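The Hoxa, Hoxb and Hoxc cluster genes are homeobox genes of 3 chromosomal clusters, described here in fully grown oocytes of the mouse, which wait with an intact nucleus (the germinal vesicle, GV) until they mature. Members were taken by symbol alone, as rows of the expression table named Hoxa, Hoxb or Hoxc followed by a number. Of the 30 such rows among 24028 genes, 29 are reported here: 10 Hoxa, 10 Hoxb and 9 Hoxc genes. The series compares 2 groups of 3 libraries each. The dKO oocytes came from females of genotype Ring1 -/-; Rnf2 f/f; Zp3-cre, and the controls from females of genotype Ring1 -/-; Rnf2 f/f, so both groups lacked Ring1 and both carried floxed Rnf2. All animals were about 3 months old and of a mixed FVB, 129/Sv and C57BL/6J background. Each library held RNA of 15 oocytes pooled from 1 female, and the replicates are treated here as separate animals. Cre was driven by Zp3, a zona pellucida gene active in growing oocytes, and no control carried Cre without loss of Rnf2, so the loss of Rnf2 and the transgene cannot be told apart.

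Ring1 and Rnf2 encode the ubiquitin ligases of Polycomb repressive complex 1 (PRC1), which marks histone H2A and helps to keep developmental genes silent. Hox genes encode homeodomain transcription factors that give segments of the body axis and limbs their identity. Within each cluster they lie in the order of their paralog numbers, with low numbers acting towards the head and high numbers towards the tail, and they are among the classical targets of Polycomb repression. The fully grown oocyte is a cell in which they have no established role.

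Values are FPKM, that is fragments per kilobase of transcript, scaled to the number of mapped fragments. The targeted gene Rnf2 was at 14.8, 8.44 and 5.31 FPKM in the dKO libraries and at 53.7, 46.8 and 48.2 FPKM in the controls (log2 change -2.37 ± 0.33 SE, limma adjusted p = 0.00997), so its level followed the labels. Ring1 averaged 0.121 ± 0.113 FPKM in dKO oocytes and 0.0498 ± 0.0420 FPKM in controls (SD, n = 3 each). Relative depth, read from the commonest ratio between low values of the same gene, was 0.661 to 1.08 in dKO libraries and 0.903 to 1.02 in controls, with dKO replicates 1 and 2 the shallowest. Correlations of log2(FPKM + 1) were 0.963 to 0.973 within dKO libraries, 0.983 to 0.985 within controls and 0.936 to 0.957 between the groups. The oocyte markers, summed, stood at 4717 to 6614 FPKM in dKO libraries and 8003 to 8275 FPKM in controls, and 0 of 10 passed the limma test in either direction (5 were lower and 0 higher at an unadjusted p under 0.05). All dKO libraries carried the same index and all controls another, so index and genotype cannot be told apart.

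Hox transcripts were scarce in control oocytes and more abundant in dKO oocytes. In the dKO libraries 26, 25 and 24 of the 29 members had a value above 0, and in the controls 14, 15 and 12 had. A level of at least 1 FPKM was reached by 10, 8 and 9 members in the dKO libraries, and by the same lone gene, Hoxa7, in every control. Summed over the members, dKO libraries held 39.9 to 45.8 FPKM and controls 5.61 to 7.67 FPKM. Because 15 oocytes were pooled, more cells with a transcript and more RNA per cell cannot be told apart.

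Of the 29 members, 12 rose in dKO oocytes and 0 fell (limma on log2(FPKM + 1) over all 20310 genes above 0 in any library, Benjamini-Hochberg adjusted p under 0.05). Over all tested genes, 9.88% rose and 2.68% fell. Among tested genes with a control mean under 1 FPKM, the range in which every member but Hoxa7 lies, 14.4% rose. A further 15 members were not past the threshold, and Hoxb8 and Hoxc11 were listed at 0 in every library and could not be tested. All 27 tested members had a positive log2 change, with a median of 0.47, against 58.0% of all tested genes and a median of 0.03, and against 74.0% and a median of 0.06 of the genes with a control mean under 1 FPKM. No member had an unadjusted p under 0.05 for a fall, and 17 had one for a rise. In the controls 10 members were listed at 0 throughout, of which 8 had a value in some dKO library and 1, Hoxa9, rose; of all genes listed at 0 in the controls and above 0 elsewhere, 6.63% rose. In 19 members every dKO value lay above every control value, as did those of 22.3% of all tested genes and 29.1% of those with a control mean under 1 FPKM. On the log2(FPKM + 1) scale the change of a gene with low values is understated.

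The number of rises depended on the model. Hoxa5, Hoxa7, Hoxb4 and Hoxc13 rose under the main setting and under all 15 alternatives. With the replicate number, which marks a shared flow-cell lane, as a block in the fit, 5 members rose (the same 4 and Hoxa10) against 4.55% of all genes. Without control replicate 1, 2 or 3 the 4 alone did, where 3.49%, 3.34% and 3.59% of all genes rose. Without dKO replicate 1, 2 or 3 the number was 10, 12 and 16, where 8.92%, 9.64% and 12.9% of all genes rose. The number of rising members thus moved with that of all genes. Only 7 members passed a filter of at least 1 FPKM in 3 libraries, and all of them but Hoxa7 did so through their dKO values alone. All 7 rose there, where 14.0% of genes did. For members kept through their dKO values the filter largely fixes that outcome, so this count adds no support.

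**Figure D1:**
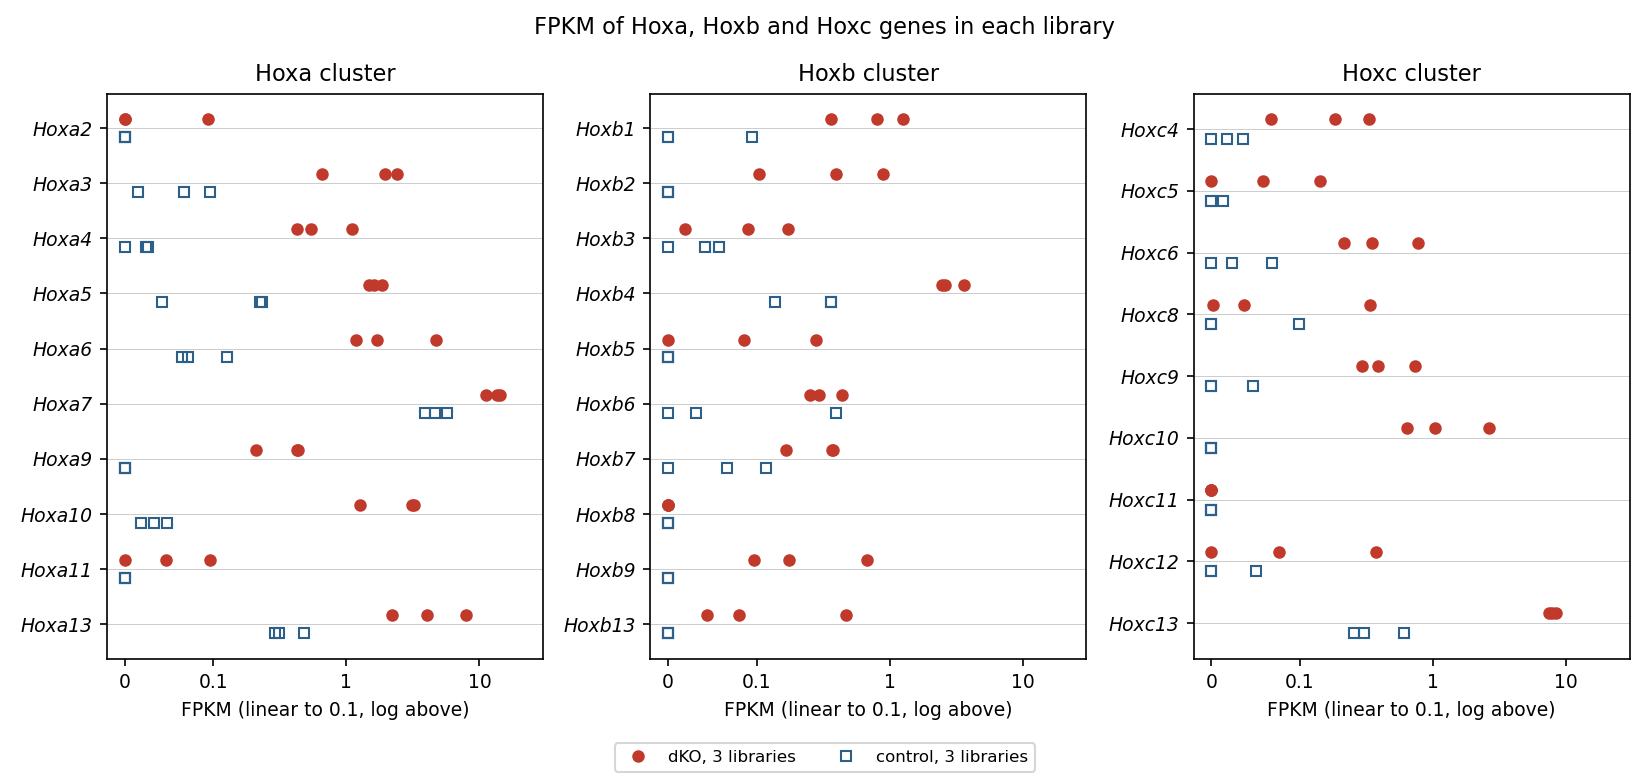
FPKM of each member in each library, in order of paralog number, with dKO libraries as filled circles above and controls as open squares below; the axis is linear up to 0.1 FPKM and logarithmic beyond. Hoxa7 at 11.3 to 14.2 FPKM and Hoxc13 at 7.41 to 8.36 FPKM are the highest in dKO oocytes, and most control values lie under 0.1 FPKM.

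The Hoxa cluster, with 8 of its 10 members rising, had more calls than Hoxb or Hoxc. Over all tested genes 9.88% rose, and of those with a control mean under 1 FPKM 14.4% did. Hoxa7, a gene of the trunk region, was the highest member in both groups. It had 11.3, 14.2 and 13.5 FPKM in dKO libraries, against 4.60, 3.89 and 5.67 FPKM in controls. The groups did not overlap, and the ratio of means was 2.75, the smallest among the members above 0 in every control (log2 change 1.30 ± 0.17 SE; limma adjusted p = 0.00813).

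Hoxa13, which patterns digits and the genital tract, had 4.01, 2.21 and 7.96 FPKM in dKO libraries and 0.291, 0.484 and 0.314 FPKM in controls (log2 change 1.95 ± 0.39 SE; limma adjusted p = 0.0297). All dKO values were higher, but they spread widely, and dKO replicate 3 was the highest. Hoxa10, needed for the uterus and for limb and vertebral patterning, had 3.21, 3.10 and 1.27 FPKM in dKO libraries and 0.0329, 0.0182 and 0.0483 FPKM in controls (log2 change 1.72 ± 0.26 SE; limma adjusted p = 0.0133). Here dKO replicate 3 was the lowest of its group. Hoxa5, a regulator of lung and neck development, was more even between dKO libraries, with 1.60, 1.48 and 1.86 FPKM in dKO libraries and 0.231, 0.0426 and 0.226 FPKM in controls. Its log2 change was 1.18 ± 0.12 SE (limma adjusted p = 0.00444).

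Hoxa6, a neighbour of Hoxa5 that acts in the trunk, had 1.18, 1.69 and 4.74 FPKM in dKO libraries and 0.0650, 0.0719 and 0.127 FPKM in controls. Hoxa3, which is needed for thymus and parathyroid, had 2.41, 1.95 and 0.660 FPKM in dKO libraries and 0.0963, 0.0152 and 0.0674 FPKM in controls. The highest dKO library was replicate 3 for Hoxa6 and replicate 1 for Hoxa3, so the dKO libraries did not keep 1 order across the cluster. Hoxa4, which acts in the cervical region, had 1.10, 0.543 and 0.426 FPKM in dKO libraries and 0.0243, 0.0269 and 0 FPKM in controls. Hoxa9, known for its part in blood progenitors and leukaemia, had 0.434, 0.210 and 0.427 FPKM in dKO libraries and was listed at 0 in all controls. The log2 changes of Hoxa6, Hoxa3, Hoxa4 and Hoxa9 were 1.57, 1.27, 0.71 and 0.44 (limma adjusted p = 0.0450, 0.0370, 0.0322 and 0.0169). The replicate block cost the call of these 4 and of Hoxa13, with limma adjusted p-values of 0.0509 to 0.0705.

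The other Hoxa members were nearly absent in both groups. Hoxa2, a gene of the hindbrain and second branchial arch, was above 0 only in dKO replicate 3, at 0.0945 FPKM. Hoxa11, needed for the uterus and forearm, had 0.0467, 0.0958 and 0 FPKM in dKO libraries and 0 in all controls. Both had a positive log2 change that was not past the threshold (limma adjusted p = 0.512 and 0.287). Hoxa11 thus lay between Hoxa10 and Hoxa13, both of which rose, without a detectable change of its own at this depth.

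In the Hoxb cluster 2 of 10 members rose, where 9.88% of all tested genes did. Of genes with a control mean under 1 FPKM 14.4% rose, and whether the cluster exceeds that share was not tested. Hoxb4, known for expanding blood stem cells, had 3.58, 2.60 and 2.45 FPKM in dKO libraries, against 0.136, 0.362 and 0.360 FPKM in controls. The lowest dKO value was above the highest control value, and the ratio of means was 10.1 (log2 change 1.59 ± 0.18 SE; limma adjusted p = 0.00569). Hoxb1, the hindbrain gene at the head end of the cluster, had 0.805, 0.363 and 1.25 FPKM in dKO libraries and 0, 0.0950 and 0 FPKM in controls (log2 change 0.78 ± 0.18 SE; limma adjusted p = 0.0460, and 0.0947 with the replicate block).

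The remaining Hoxb members stayed under 1 FPKM in every library. Hoxb2, which acts in the hindbrain beside Hoxb1, had 0.888, 0.392 and 0.104 FPKM in dKO libraries and 0 in all controls, with an unadjusted limma p of 0.0340 and an adjusted p of 0.140. Hoxb9, a thoracic gene, had 0.0975, 0.176 and 0.669 FPKM, and Hoxb13, a gene of the tail end and prostate, 0.0439, 0.468 and 0.0803 FPKM in dKO libraries, both with 0 in all controls. In Hoxb2, Hoxb9, Hoxb13 and Hoxb7 the groups did not overlap although none was past the threshold. Every dKO value also lay above every control value in 29.1% of genes with a control mean under 1 FPKM. Where all controls are at 0, any value above 0 in each dKO library gives this outcome. Hoxb7 had 0.365, 0.375 and 0.167 FPKM in dKO libraries and 0, 0.0669 and 0.118 FPKM in controls (limma adjusted p = 0.0693). Hoxb6 had 0.435, 0.250 and 0.292 FPKM in dKO libraries and 0, 0.0318 and 0.395 FPKM in controls, so control replicate 3 lay within the dKO range. Hoxb5 was at 0.0863, 0 and 0.281 FPKM in dKO libraries and 0 in all controls. Hoxb3 was at 0.172, 0.0899 and 0.0191 FPKM in dKO libraries and 0.0414, 0.0572 and 0 FPKM in controls, which overlapped. Hoxb4 therefore stood between Hoxb3 and Hoxb5, neither of which reached 0.3 FPKM in any library.

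In the Hoxc cluster 2 of 9 members rose, where 9.88% of all tested genes did. Of genes with a control mean under 1 FPKM 14.4% rose, and whether the cluster exceeds that share was not tested. Hoxc13, which controls hair and nail keratins, had 8.36, 7.85 and 7.41 FPKM in dKO libraries, against 0.606, 0.303 and 0.255 FPKM in controls. On the log2(FPKM + 1) scale it had the largest change of all members, 2.68 ± 0.19 SE (limma adjusted p = 0.00195), whereas with a pseudocount of 0.1 the log2 change was 4.20 for Hoxa10 and 4.10 for Hoxc13. The ratio of means of Hoxc13 was 20.3, and its dKO values lay within a narrow range. Hoxc9, a thoracic gene, had 0.385, 0.290 and 0.725 FPKM in dKO libraries and 0, 0.0470 and 0 FPKM in controls (log2 change 0.52 ± 0.11 SE; limma adjusted p = 0.0353, and 0.0771 with the replicate block).

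Hoxc10, a lumbar and hindlimb gene, had 2.62, 0.631 and 1.02 FPKM in dKO libraries and was listed at 0 in all controls. Its dKO values spread widely, with replicate 1 the highest, and it was just short of the threshold (log2 change 1.19 ± 0.29 SE; limma adjusted p = 0.0507). It passed with a pseudocount of 0.1 or 0.5, with a filter on mean FPKM, with array weights and without dKO replicate 1 or 2. Hoxc6 had 0.771, 0.345 and 0.214 FPKM in dKO libraries and 0.0232, 0 and 0.0682 FPKM in controls, and Hoxc4 0.328, 0.0674 and 0.184 FPKM in dKO libraries and 0.0362, 0 and 0.0177 FPKM in controls. Neither overlapped, and neither was past the threshold (limma adjusted p = 0.0882 and 0.133). The same lack of overlap, with dKO values higher, held for 29.1% of genes with a control mean under 1 FPKM. Hoxc5, Hoxc8 and Hoxc12 overlapped between the groups, with dKO means of 0.0667, 0.125 and 0.150 FPKM and control means of 0.00424, 0.0329 and 0.0168 FPKM. Hoxc8 had 0.337, 0.0369 and 0.00196 FPKM in dKO libraries and 0, 0.0987 and 0 FPKM in controls, and its log2 change turned to -0.02 without dKO replicate 1.

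**Figure D2:**
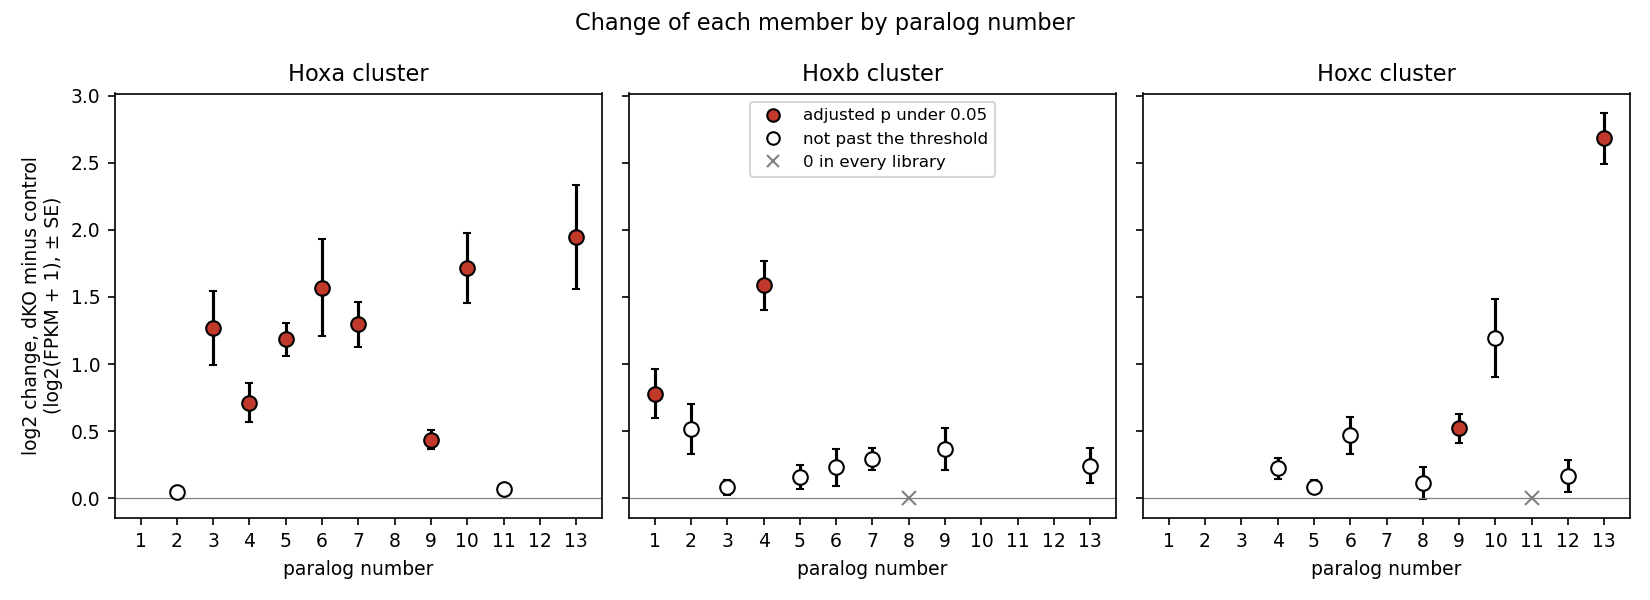
Log2 change on the log2(FPKM + 1) scale, dKO minus control, with its standard error, by paralog number in each cluster; filled points passed an adjusted p of 0.05, and crosses mark Hoxb8 and Hoxc11 at 0 in every library. On this scale Hoxc13 at 2.68 and Hoxa13 at 1.95 have the largest changes, while Hoxb13 is at 0.24.

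Ordered by paralog number, the rises were spread over head, trunk and tail groups. Of the 5 members of groups 1 to 3, 2 rose; of the 13 members of groups 4 to 8, 5 rose; and of the 11 members of groups 9 to 13, 5 rose. Beside these counts, 9.88% of all tested genes rose, and 14.4% of those with a control mean under 1 FPKM. The median log2 changes of the tested members were 0.51, 0.38 and 0.48. In group 13, 2 of 3 members rose, and their summed level was 10.5 to 15.4 FPKM in dKO libraries and 0.569 to 0.897 FPKM in controls. In group 4, 2 of 3 rose, with sums of 3.06 to 5.01 FPKM in dKO libraries and 0.197 to 0.389 FPKM in controls. Groups 8 and 11 were the quietest, with sums of at most 0.337 and 0.0958 FPKM in any dKO library. Paralogs of the same number could differ widely in level: in dKO oocytes Hoxb13 averaged 0.197 FPKM, Hoxa13 4.73 FPKM and Hoxc13 7.87 FPKM.

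**Figure D3:**
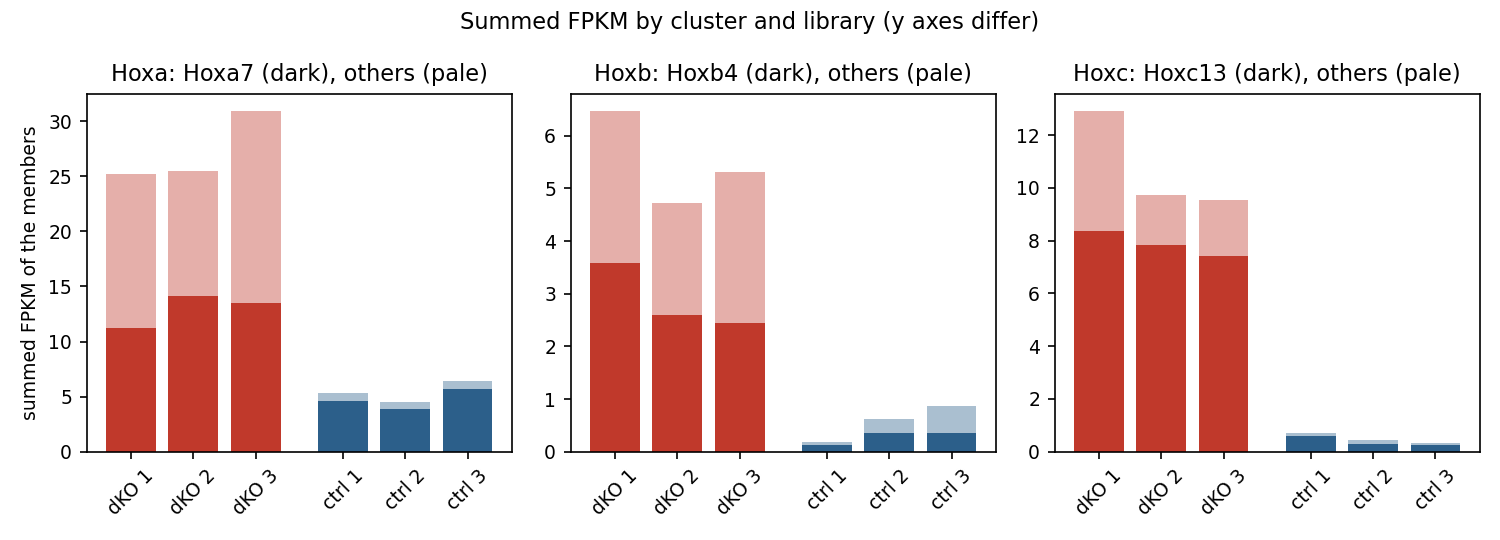
Summed FPKM of the members of each cluster in each library, dKO libraries to the left of controls, with the highest member of the cluster in the dark part of the bar and all others in the pale part; the y axes differ. Hoxa sums are 25.2 to 31.0 FPKM in dKO libraries and 4.55 to 6.45 FPKM in controls.

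The highest member made up a large part of each cluster's total. The Hoxa members summed to 27.2 ± 3.25 FPKM in dKO oocytes and 5.45 ± 0.955 FPKM in controls, the Hoxb members to 5.50 ± 0.894 and 0.555 ± 0.352 FPKM, and the Hoxc members to 10.7 ± 1.90 and 0.506 ± 0.200 FPKM, dKO first in each pair (SD, n = 3 each). Hoxa7 made up 47.7% of the Hoxa sum in dKO oocytes and 86.6% in controls, so the other Hoxa members were a larger part of it in dKO oocytes. Hoxb4 made up 52.3% of the Hoxb sum in dKO oocytes and 51.6% in controls, and Hoxc13 73.3% of the Hoxc sum in dKO oocytes and 76.7% in controls. Without its highest member, each cluster still averaged more in dKO oocytes: Hoxa 14.2 FPKM against 0.727 FPKM in controls, Hoxb 2.62 FPKM against 0.269 FPKM, and Hoxc 2.87 FPKM against 0.118 FPKM. The libraries did not agree on which was highest: over the 27 members above 0 in some library, dKO replicate 1 was the highest dKO library for 13, replicate 2 for 6 and replicate 3 for 8.

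Whole fragment numbers that fit these values were found for 22 of the 26 members that were above 0 in at least 2 libraries. Their values, multiplied by relative depth, were whole multiples of the worth of 1 fragment to within 0.01 of a fragment. The largest fitting worth was taken, so the numbers given are the smallest that fit, and the true ones may be multiples of them. In control replicate 1 a fragment was worth 0.0103 to 0.0650 FPKM, depending on the gene. Hoxc13 rested on 383, 438 and 556 fragments in dKO libraries and 42, 19 and 18 in controls, and Hoxb4 on 174, 154 and 195 in dKO libraries and 10, 24 and 27 in controls. Hoxa10 rested on 129, 152 and 84 fragments in dKO libraries and 2, 1 and 3 in controls. Hoxc10 had 92, 27 and 59 fragments in dKO libraries and 0 in each control, and Hoxa6 had 12, 21 and 79 in dKO libraries and 1, 1 and 2 in controls. Over all 3 controls together 16 of the 22 had fewer than 10 fragments by these smallest numbers, so control levels of most members are known only roughly. In 10 of the 22 some dKO library also held fewer than 10, among them Hoxb7 with 4, 5 and 3, and Hoxc4 with 12, 3 and 11. The RNA was amplified, so fragments need not be independent molecules.

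Promoter windows, from 250 bases before to 50 after the start of the gene, were at hand for 13 members in RefSeq on GRCm38.p6. Shown are Hoxa7 and Hoxb4, which rose in every setting, Hoxa13, which had the most CpG, and Hoxb8, at 0 in every library, so that the CpG content of rising and silent members can be seen side by side. Sequences run 5′ to 3′ on the gene's strand, and capitals mark CpG dinucleotides. Hoxa13 is at chr6:52260831-52261130, Hoxa7 at chr6:52218524-52218823 (both minus strand), Hoxb4 at chr11:96318017-96318316 and Hoxb8 at chr11:96281655-96281954 (both plus strand).
Hoxa13: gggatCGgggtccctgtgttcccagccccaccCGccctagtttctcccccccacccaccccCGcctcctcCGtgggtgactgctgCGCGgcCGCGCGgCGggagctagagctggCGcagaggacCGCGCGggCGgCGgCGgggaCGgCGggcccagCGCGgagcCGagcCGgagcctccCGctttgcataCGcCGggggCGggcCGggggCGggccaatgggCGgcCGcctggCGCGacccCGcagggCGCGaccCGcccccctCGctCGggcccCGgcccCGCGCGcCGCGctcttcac
Hoxa7: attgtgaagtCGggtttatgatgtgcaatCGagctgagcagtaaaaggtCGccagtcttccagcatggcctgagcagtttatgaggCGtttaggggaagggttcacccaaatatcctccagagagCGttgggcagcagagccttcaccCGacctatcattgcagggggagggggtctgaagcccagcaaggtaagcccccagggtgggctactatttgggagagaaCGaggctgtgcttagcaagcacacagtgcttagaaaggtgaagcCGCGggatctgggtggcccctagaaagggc
Hoxb4: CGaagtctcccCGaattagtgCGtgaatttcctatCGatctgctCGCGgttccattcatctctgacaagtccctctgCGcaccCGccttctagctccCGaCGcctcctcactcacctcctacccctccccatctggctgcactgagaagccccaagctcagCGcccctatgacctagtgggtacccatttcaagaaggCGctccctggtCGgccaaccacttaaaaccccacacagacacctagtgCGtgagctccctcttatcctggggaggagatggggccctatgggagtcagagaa
Hoxb8: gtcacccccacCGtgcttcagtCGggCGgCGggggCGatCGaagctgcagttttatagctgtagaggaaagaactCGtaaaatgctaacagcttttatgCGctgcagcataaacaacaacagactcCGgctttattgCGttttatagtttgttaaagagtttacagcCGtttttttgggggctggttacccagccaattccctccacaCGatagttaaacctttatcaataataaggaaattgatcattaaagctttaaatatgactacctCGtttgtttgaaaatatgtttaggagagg
The windows of Hoxa13, Hoxa7, Hoxb4 and Hoxb8 held 45, 9, 14 and 13 CpG. Over the 14 windows of the 13 members, Hoxa10 having 2, the median was 13.5 CpG and the range 4 to 45, against a median of 7 over all 32851 promoter windows of the same table. The 10 windows of members that rose had 4 (Hoxa9) to 45 CpG with a median of 17, and the 3 windows of members tested but not past the threshold had 9 to 15 with a median of 9. The ranges overlapped, and with so few windows the difference was not tested. The letters GGGCGG, on either strand, occurred in 42.9% of the member windows and 35.7% of all windows, TATAAA in 14.3% and 13.6%, CCAAT in 57.1% and 37.4%, and AGGTCA in 21.4% and 16.3%. None of these motifs contains another, and a match is only a match of letters. The start of transcription used in oocytes is not known from these data.

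Hox proteins bind DNA together with homeodomain partners of the TALE class. Of 8 TALE cofactor genes 3 rose and 0 fell, beside 9.88% and 2.68% of all tested genes. At an unadjusted limma p under 0.05, 3 were higher and 1 lower. Meis1, a leukaemia cofactor of Hoxa9, averaged 2.45 ± 0.971 FPKM in dKO oocytes and 0.421 ± 0.294 FPKM in controls, Pbx3 5.22 ± 1.22 and 2.23 ± 0.488 FPKM, and Meis3 0.130 ± 0.0313 and 0.00693 ± 0.0120 FPKM, dKO first in each pair (SD, n = 3 each; limma adjusted p = 0.0363, 0.0482 and 0.0198). With the replicate block the adjusted limma p was 0.0548 for Meis1, 0.127 for Pbx3 and 0.0807 for Meis3. These 3 did not pass without control replicate 1, 2 or 3 either. Meis2 was by far the most abundant, at 88.0 to 121 FPKM in dKO libraries and 114 to 129 FPKM in controls, and was not past the threshold.

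Of 17 genes that act upstream of Hox clusters, 4 rose and 0 fell, beside 9.88% and 2.68% of all tested genes. At an unadjusted limma p under 0.05, 7 were higher and 0 lower. Kmt2a, the histone H3 lysine methyltransferase that keeps Hox genes active, had 15.7, 16.3 and 19.5 FPKM in dKO libraries and 0.882, 0.371 and 0.604 FPKM in controls. The groups were far apart, and Kmt2a rose under all 15 alternatives. On the log2(FPKM + 1) scale its change of 3.50 ± 0.19 SE (limma adjusted p = 0.00133) exceeded that of every member. That scale understates the change of members with low values. Hoxa10 averaged 2.53 and 0.0331 FPKM, a ratio of means of 76.3, and Kmt2a 17.2 and 0.619 FPKM, dKO first in each pair. Kmt2b, its close relative, averaged 14.0 ± 3.86 FPKM in dKO oocytes and 19.4 ± 2.14 FPKM in controls, and their partner Men1 17.8 ± 5.05 and 22.9 ± 0.243 FPKM, dKO first (SD, n = 3 each); neither was past the threshold.

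The 3 enzymes that make retinoic acid, a signal that switches Hox genes on in the embryo, all rose. Aldh1a2 averaged 89.9 ± 7.71 FPKM in dKO oocytes and 35.2 ± 9.26 FPKM in controls, Aldh1a3 1.44 ± 0.462 and 0.0471 ± 0.0363 FPKM, and Aldh1a1 1.02 ± 0.397 and 0.240 ± 0.0979 FPKM, dKO first in each pair (SD, n = 3 each; limma adjusted p = 0.0116, 0.00830 and 0.0449). With the replicate block the adjusted limma p was 0.0518 for Aldh1a2 and 0.111 for Aldh1a1. Aldh1a2 did not pass without control replicate 1, Aldh1a3 without control replicate 1 or 2, and Aldh1a1 without control replicate 1, 2 or 3. The caudal genes Cdx1 and Cdx2, activators of the trunk Hox genes, averaged 0.528 and 0.471 FPKM in dKO oocytes and 0.00768 and 0.0628 FPKM in controls, and were not past the threshold.

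**Figure D4:**
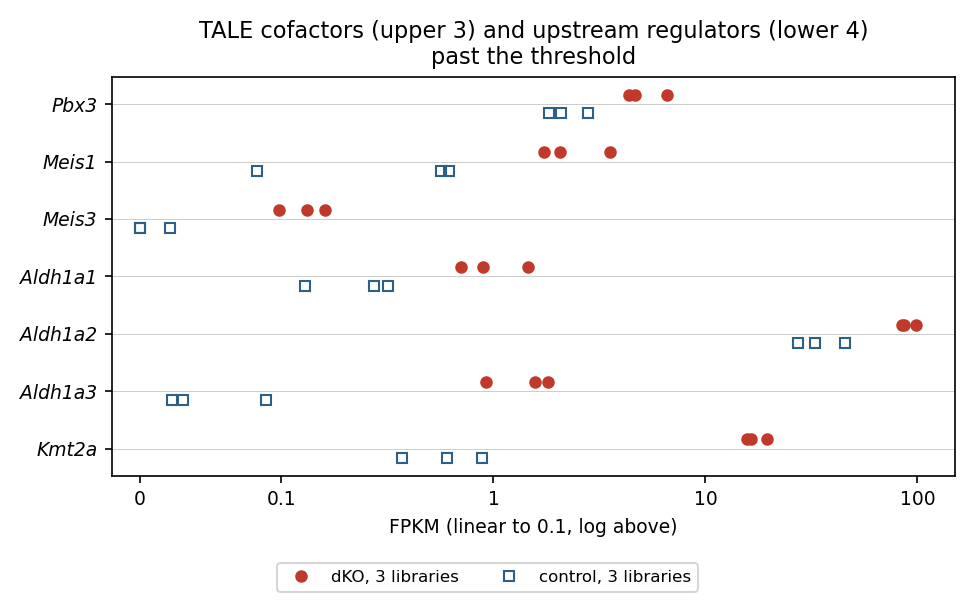
FPKM in each library of the TALE cofactors and upstream regulators past the threshold, with dKO libraries as filled circles above and controls as open squares below; the axis is linear up to 0.1 FPKM and logarithmic beyond. In each of the 7 genes all dKO values lie above all control values, but the genes were picked by the threshold from these same values. Over the whole lists this held for 3 of 8 TALE cofactors and 7 of 17 upstream regulators, and for 22.3% of all tested genes.

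Non-coding transcripts of the clusters were almost undetected. Of the 9 measured, 6 were listed at 0 in every library, among them the microRNA genes Mir10a, Mir196a-1, Mir196a-2, Mir196b and Mir615. Whether these libraries capture microRNA was not tested, so a 0 for these genes need not mean absence. None of the 3 tested passed the threshold, and 0 had an unadjusted limma p under 0.05. Hotair, a transcript of the Hoxc cluster, had 0, 0.0198 and 0 FPKM in dKO libraries and 0.0956, 0 and 0 FPKM in controls. Hottip, beside Hoxa13, was above 0 only in dKO replicate 1, at 0.0459 FPKM. Hoxaas3, whose exons lie opposite those of Hoxa3 and Hoxa7, had 0.0771, 0.0633 and 0 FPKM in dKO libraries and 0 in all controls. The use of strand is not given in the sources used here, so genes that overlap cannot be separated by their reads. In GENCODE M21, 11 of the 29 members, among them 4 of the 12 that rose (Hoxa3, Hoxa4, Hoxa7 and Hoxa9), share exon bases with another annotated gene, and their values are uncertain to that extent; so are those of Hoxc10 and Hoxc5, which share exon bases with each other.

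Among genes that flank the clusters calls went both ways. Of 24 flanking genes 22 were in the table and 21 were tested, of which 1 rose and 3 fell. Over all tested genes 9.88% rose and 2.68% fell. At the Hoxa cluster 0 of 6 passed the limma test, with 1 higher and 0 lower at an unadjusted p under 0.05. The higher one, Snx10, averaged 1.16 FPKM in dKO oocytes and 0.344 FPKM in controls (limma adjusted p = 0.128). Evx1, a homeobox gene next to Hoxa13, had 5.61, 6.68 and 5.01 FPKM in dKO libraries and 5.74, 5.41 and 5.25 FPKM in controls. Skap2 on the other side averaged 34.3 FPKM in dKO oocytes and 44.9 FPKM in controls. At the Hoxb cluster Ttll6, a tubulin ligase gene, rose to 0.442 ± 0.163 FPKM in dKO oocytes, against 0.0508 ± 0.0526 FPKM in controls, and Nfe2l1, a regulator of proteasome genes, fell to 40.9 ± 6.74 FPKM, against 78.5 ± 7.05 FPKM (SD, n = 3 each; limma adjusted p = 0.0324 and 0.0160). At the Hoxc cluster Smug1, a DNA repair glycosylase gene, had 4.51, 7.49 and 8.76 FPKM in dKO libraries and 26.1, 27.3 and 26.5 FPKM in controls (log2 change -1.84 ± 0.22 SE; limma adjusted p = 0.00643). Copz1, a coat protein gene of the same flank, averaged 54.5 ± 14.7 FPKM in dKO oocytes and 103 ± 4.22 FPKM in controls (SD, n = 3 each; limma adjusted p = 0.0315, and 0.0761 with the replicate block). Smug1 fell with any 1 library left out, while Ttll6, Nfe2l1 and Copz1 did not pass without control replicate 1, 2 or 3. Whether the Hox genes and their neighbours differ in response was not tested.

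Some markers of other ovarian cells were also higher in the dKO libraries. For comparison, 9.88% of all tested genes rose, and 14.4% of those with a control mean under 1 FPKM. Of 14 granulosa and cumulus markers 5 rose (Fshr, Ptgs2, Wt1, Has2 and Nr5a2) and 0 fell (limma; 5 higher and 1 lower at an unadjusted p under 0.05), and the summed level of the list was 62.0 to 67.3 FPKM in dKO libraries and 26.3 to 33.4 FPKM in controls. Others of that list did not move upwards with them: Cyp19a1 was at 5.23 to 6.19 FPKM in dKO libraries and 7.60 to 11.3 FPKM in controls, Amh at 0.122 to 0.684 and 0.0432 to 1.03 FPKM, and Amhr2 at most at 0.0558 and 0.0817 FPKM, dKO first. Of 10 theca and stroma markers 4 rose (Nr2f2, Dcn, Pdgfra and Col1a1) and 0 fell (limma; 5 higher and 0 lower at an unadjusted p under 0.05), with sums of 6.27 to 10.3 FPKM in dKO libraries and 1.29 to 1.83 FPKM in controls, while Col1a2 was at 0 in all dKO libraries. A positive log2 change was seen in 7 of the 10. Cyp17a1, Cyp11a1 and Star averaged 0.0361, 0.276 and 0.219 FPKM in dKO oocytes and 0.0713, 0.299 and 0.202 FPKM in controls. Of 5 endothelial and 5 blood cell markers 0 passed the limma test (1 endothelial marker was higher at an unadjusted p under 0.05), with sums of 6.70 to 8.20 and 1.41 to 3.56 FPKM in dKO libraries and 3.95 to 5.17 and 0.551 to 2.04 FPKM in controls. Emcn and Hbb-b1 were listed at 0 throughout. With the replicate block Has2, Nr5a2, Dcn and Col1a1 were short of the threshold (limma adjusted p = 0.0575, 0.0695, 0.0516 and 0.0517). The part of other cells in the Hox values was not tested.

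The fourth cluster, Hoxd, was higher in level. Hoxd1, Hoxd8, Hoxd9 and Hoxd13, 4 of its 9 genes, rose under the main setting, where 9.88% of all tested genes did, and under all 15 alternatives. The Hoxd sum was 64.3 to 101 FPKM in dKO libraries and 3.23 to 4.35 FPKM in controls. In summed FPKM, each dKO library thus held more of Hoxd than of the 29 Hoxa, Hoxb and Hoxc members together, whereas each control held less.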

How the data were processed

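Total RNA of germinal vesicle oocytes was measured in 3 dKO and 3 control libraries. Per the labels' protocols, oocytes were stripped of granulosa cells with a glass capillary, 15 from 1 female made a pool, and their RNA was amplified (Ovation v2) and sequenced on a HiSeq. The authors deposited FPKM per gene, as a single table. The submitters' processing notes name build mm9, Cufflinks 2.0.2 and TopHat2 2.0.11, with roles, annotation, strand use and scaling not given in the sources used here.

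Of 24525 rows, 497 exact repeats were removed. R 4.3.3 with limma 3.58.1 (lmFit, eBayes with trend, two-sided) fitted log2(FPKM + 1) of the 20310 genes above 0 in any library, with Benjamini-Hochberg adjustment over all and a threshold of 0.05. No filter on level was used, since most members are near 0 in controls. The fit was tested on simulated data. The symbol rule matched 30 rows, and 1 of them, like some genes of the other lists, is not reported here. All members were named; of the other lists, members past the threshold, with further list genes given beside a result after their values were seen. The members and lists were chosen with earlier results of these data known.

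Lane names in the labels show that a replicate number stands for 1 lane holding a dKO and a control library, so the number pairs them. The correlation of their deviations was 0.0714 in pair 1, 0.0871 in pair 2 and 0.0461 in pair 3. Between dKO and control libraries of unlike number it was -0.0694 to -0.00504, so only the lane pairs had positive values. The fit reported has no block, and the block was an alternative, with other pseudocounts, filters, scalings and variance models and the removal of each library. Sequences are RefSeq's and exon overlaps GENCODE M21's, both on GRCm38 and not on the authors' build. Whole fragments were accepted where the FPKM worth of 1 fragment, multiplied by the length of the longest transcript in kilobases, was 0.02 to 0.1.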

Additional observations from a re-analysis of the deposited data

How the results depend on the processing

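Over all genes, 2006 rose and 545 fell. Rises were 78.6% of the calls, 68.6% after median-ratio scaling (869 falls) and 56.1% after quantile normalization (1265 rises, 991 falls); with the replicate block the calls were 925 and 108, and with a library left out 674 to 2583 and 91 to 1044. The 12 rising members became 7 with the filter of 1 FPKM in 3 libraries, 7 after quantile normalization, 5 with the replicate block and 4 to 16 with a library left out, where 0 fell; under each alternative 0 members fell. The 8 rising Hoxa members became 5, 5, 3 and 2 to 8 under those settings. The 2 rising Hoxb members became 1 with that filter, after either scaling, without a trend and with the replicate block, and 1 to 5 with a library left out. The 2 rising Hoxc members became 4 with a pseudocount of 0.1 or with array weights, 1 with that filter, after quantile normalization, without a trend and with the replicate block, and 1 to 4 with a library left out. The cause of these shifts was not tested, except that the filter leaves fewer members and each removal fewer libraries. The log2 ratios of the summed FPKM, 2.32 for Hoxa, 3.31 for Hoxb and 4.41 for Hoxc, ranged over 2.21 to 2.46, 2.89 to 3.80 and 4.19 to 4.77 with a library left out. The log2 change of Hoxc8 turned to -0.018 without dKO replicate 1, in a range up to 0.19 with a library left out; no other member changed sign under any alternative. The replicate block changed no call among the members beyond the 7 lost. Depth limits the members with under 10 control fragments by the smallest numbers that fit.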
